A study of Caenorhabditis elegans with 2 samples.

Results

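The genes examined here encode translation factors and aminoacyl-tRNA synthetases of Caenorhabditis elegans, 71 of the 19973 protein-coding genes annotated in WBcel235. They were chosen by symbol, as every protein-coding gene whose name begins with eif-, eef-, ife-, ifg- or iff-, or consists of 1 letter followed by ars- and a number. The rule itself uses names and no measured value. For each gene the best-ranked region was taken whose summit lay in the gene or up to 1500 bp upstream of its 5′ end, and 67 of the 71 had such a region in the list made from both replicates.

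The study mapped chromatin occupied by ALR-1, the worm counterpart of the fly homeodomain protein Aristaless, by ChIP-seq with an antibody against GFP. There was 1 group, strain OP362, with 2 biological replicates, each of whole larvae at stage L1, aged 6 hours, of mixed sex and kept without food after bleaching. All animals carried the unc-119(tm4063) III allele and the integrated array wgIs362, from which ALR-1 is expressed with a GFP-FLAG tag at its C-terminus. Chromatin came from whole animals, so the cell type behind a region cannot be told apart, and with 1 group no condition was compared with another. Each replicate has 30000 regions of fixed width, a mixture of peaks and background, ranked here by the signal the authors' peak caller gave. A pooled list of the same length was made from both replicates together, and the highest regions of that list form the deposited set that passed a threshold on the irreproducible discovery rate (the IDR peaks). Pooled ranks are therefore not independent of the replicate ranks. A rank of 1000 corresponded to a pooled signal of 87.9 and to signals of 46.1 and 49.8 in replicates 1 and 2, and signals are not comparable between lists. Read depth is unknown from these lists.

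Translation begins when initiation factors bring the initiator tRNA, the small ribosomal subunit and the capped end of an mRNA together. Elongation factors then deliver aminoacyl-tRNAs and move the ribosome along the message, and each aminoacyl-tRNA synthetase charges its tRNA with 1 kind of amino acid. Most of these genes are needed in every cell. ALR-1 is best known in worms from neurons and from cells of the sensory organs, and homeodomains of its class recognise TAAT cores, which TAATTA holds on both strands.

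The strongest regions at these genes lay mostly in coding sequence. TAATTA was in 0 of the 201-bp windows around the 11 best of them, against 6.67% of the 824 best summits of all genes within the same rank limit, so that 0 of 11 is near the background. The shorter TAAT, on either strand, was in 6 of the 11 windows (54.5%, against 76.6% of the 824). Among the best summits within the top 1000 of replicate 1 it was in 9 of 12 (75%, against 74.2% for all genes). In replicate 2 it was in 5 of 8 (62.5%, against 79.8%). The sequences below were read from the RefSeq genome of WBcel235 around the pooled summit, and are given on the gene's own strand with annotated coding bases in capitals. They are shown for 6 of the 11 genes with a pooled rank within the top 1000, to contrast summits inside exons with the 2 that fell in introns. The windows are chrIII:8971355-8971555 for eif-3.D, chrIII:9490587-9490787 for dars-1, chrV:10966204-10966404 for eef-1G, chrV:18856201-18856401 for wars-1, chrII:8465022-8465222 for fars-3 and chrII:8560965-8561151 for iff-2, the last shortened to leave out untranslated exon sequence. The strand is plus for eef-1G and fars-3 and minus for the others.
eif-3.D: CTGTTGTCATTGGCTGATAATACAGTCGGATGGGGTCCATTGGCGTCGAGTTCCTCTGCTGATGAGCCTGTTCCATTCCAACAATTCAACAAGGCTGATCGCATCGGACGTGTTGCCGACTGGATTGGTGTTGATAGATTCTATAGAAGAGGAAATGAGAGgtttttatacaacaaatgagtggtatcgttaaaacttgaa
dars-1: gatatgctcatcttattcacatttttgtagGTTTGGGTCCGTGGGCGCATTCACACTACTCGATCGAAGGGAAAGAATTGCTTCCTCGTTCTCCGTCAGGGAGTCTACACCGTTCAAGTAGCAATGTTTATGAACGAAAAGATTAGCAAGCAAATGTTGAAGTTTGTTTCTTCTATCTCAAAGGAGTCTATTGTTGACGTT
eef-1G: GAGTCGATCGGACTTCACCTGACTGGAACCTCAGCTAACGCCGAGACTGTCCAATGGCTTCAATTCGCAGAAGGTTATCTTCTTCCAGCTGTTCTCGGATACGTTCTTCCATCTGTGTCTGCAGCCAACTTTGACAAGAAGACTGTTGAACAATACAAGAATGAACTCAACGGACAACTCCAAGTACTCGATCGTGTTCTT
wars-1: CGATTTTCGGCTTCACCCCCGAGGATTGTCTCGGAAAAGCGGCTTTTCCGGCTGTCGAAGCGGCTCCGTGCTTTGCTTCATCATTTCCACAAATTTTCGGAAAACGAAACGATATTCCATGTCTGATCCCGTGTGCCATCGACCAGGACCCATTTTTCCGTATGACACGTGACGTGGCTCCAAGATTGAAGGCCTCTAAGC
fars-3: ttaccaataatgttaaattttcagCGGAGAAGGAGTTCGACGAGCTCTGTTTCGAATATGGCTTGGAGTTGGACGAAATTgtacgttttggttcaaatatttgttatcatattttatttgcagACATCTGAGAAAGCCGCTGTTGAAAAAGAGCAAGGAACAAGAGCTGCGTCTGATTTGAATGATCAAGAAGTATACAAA
iff-2: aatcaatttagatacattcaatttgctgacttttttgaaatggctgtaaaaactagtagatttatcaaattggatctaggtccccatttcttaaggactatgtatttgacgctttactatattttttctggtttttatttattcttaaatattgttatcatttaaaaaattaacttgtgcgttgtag
The eef-1G and wars-1 windows were coding in all 201 bases, with 46.8% and 51.2% G and C. That of eif-3.D had 161 coding bases and that of dars-1 had 171. The iff-2 window held 0 coding bases and 26.2% G and C, and in that of fars-3 the summit lay in a short intron with coding sequence on both sides, 134 coding bases in all. TAAT was present on either strand in 4 of the 6 windows, those of eif-3.D, dars-1, fars-3 and iff-2.

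Genes of the translation machinery lay near highly ranked ALR-1-GFP regions more often than the average gene. In the pooled list 11 of 71 members (15.5%) had a summit within the top 1000, against 5.65% of all protein-coding genes. An IDR peak lay in reach of 2 members (2.82%), against 1.25% of all genes, and with so few genes that share cannot be set apart from the background. The other members within the top 1000 had regions that did not pass the IDR threshold. Within the top 5000 there were 32 members (45.1%), against 21.3% of all genes, and anywhere in the list 67 members (94.4%), against 68.8%. The median best rank was 5330 for members and 16798 for all genes, counting genes with no summit as ranked 30001. Since the members were chosen with earlier results of these data known, these shares are a description and carry no test.

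Each replicate alone gave the same direction. In replicate 1, 12 members (16.9%) stood within the top 1000, against 5.62% of all genes, and 38 (53.5%) within the top 5000, against 21.8%. As many of its top regions as there are IDR peaks reached 1 member, or 1.41%, against 1.18%, and 64 members had a summit anywhere (90.1%, against 69.1%). In replicate 2, 8 members (11.3%) stood within the top 1000, against 5.54%, and 27 (38.0%) within the top 5000, against 21.0%. The same number of top regions reached 2 members, or 2.82%, against 1.12%, and 66 had a summit anywhere (93.0%, against 68.6%). Median best ranks of the members were 3625 in replicate 1 and 6856 in replicate 2, beside 16432 and 16932 for all genes. At rank limits from 1000 down the list, the share of members was above that of all genes in all 3 lists, while at the number of IDR peaks it rested on 1 or 2 genes.

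**Figure D1:**
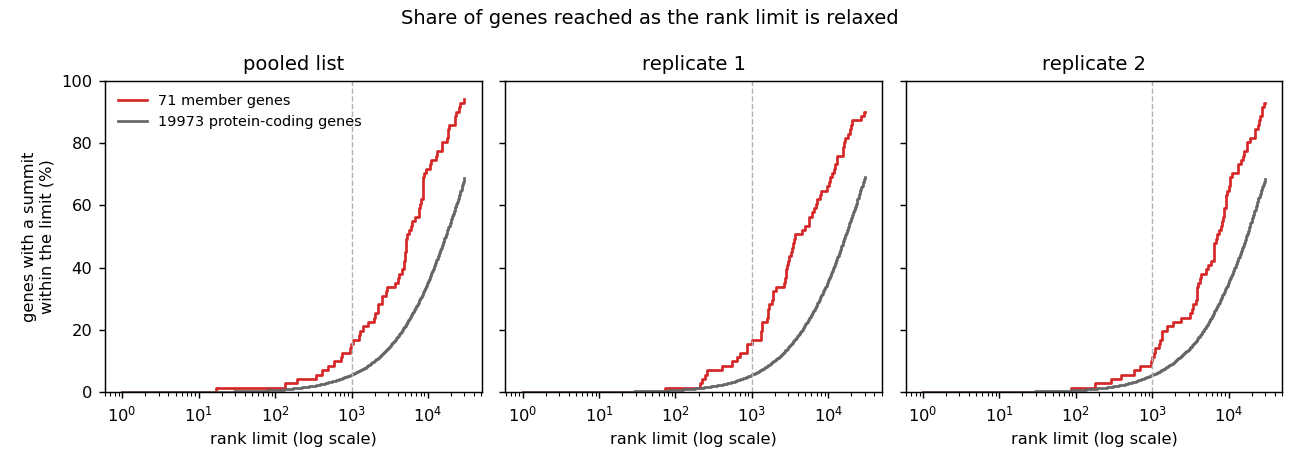
Percent of genes with a summit in the gene or 1500 bp upstream (y axis) within a given rank limit (x axis, log scale), for the 71 members (red) and 19973 protein-coding genes (grey), in the pooled list and in each replicate. At the dashed line, rank 1000, the red curves stand, from left to right, at 15.5%, 16.9% and 11.3%, against 5.65%, 5.62% and 5.54% on the grey curves.

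The share of members within the pooled top 1000 was above that of all genes in short, middle and long genes, though on 3 or 4 members in each. A longer window can hold more regions, and the members span a median of 2438 bp, against 2027 bp for all genes. Among genes spanning under 2000 bp, 4 of 19 members were within the pooled top 1000 (21.1%, against 3.35% of all genes of that span). From 2000 bp to under 4000 bp the count was 4 of 37 members (10.8%, against 5.48%), and at 4000 bp and over it was 3 of 15 (20.0%, against 11.0%). With so few genes, the shares of middle and long members cannot be set apart from the background. In the long genes median best ranks were close, at 6060 for members and 7108.5 for all genes. Per kilobase of window, members held 0.45 pooled summits and all genes 0.32, and the replicate lists gave 0.501 and 0.468 for members beside 0.321 and 0.316 for all genes. In a window of the same length for every gene, starting 1500 bp before the 5′ end and ending 500 bp after it, 5 members (7.04%) were within the pooled top 1000, against 3.08% of all genes. Inside the gene alone it was 9 members (12.7%), against 3.72%.

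Among the eIF3 subunits, which hold the small subunit ready for the mRNA, eif-3.D carried the strongest region of all 71 genes. The gene (WBGene00001227, chromosome III, 8969635 to 8971578, minus strand) encodes subunit d, known in human cells to bind the cap of some mRNAs. Its pooled region at 8971273 to 8971636 had rank 17 and a signal of 140, with the summit 123 bp downstream of the 5′ end and inside the first coding exon. The divergent neighbour R08D7.4 was also in reach, and its 5′ end put the summit in the promoter class. In replicate 1 the region ranked 72 (signal 63.3, summit 255 bp downstream), and in replicate 2 it ranked 85 (signal 66.7, summit 118 bp downstream). No other member was within the top 100 of either replicate.

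The other 10 eIF3 genes had weaker regions, and some differed widely between replicates. For eif-3.G, an RNA-binding subunit, the pooled rank was 958, with the summit 542 bp downstream of the 5′ end in a coding exon. Replicate 1 placed it at 259 and replicate 2 at 10164. The reverse held for eif-3.L, with 16092 in replicate 1, 1066 in replicate 2 and a pooled rank of 1246. The remaining 8, eif-3.B, eif-3.C, eif-3.E, eif-3.F, eif-3.H, eif-3.I, eif-3.J and eif-3.K, had pooled ranks between 2180 and 17868. All 11 subunit genes had a summit in each of the 3 lists. Of all genes, 68.8%, 69.1% and 68.6% had one in the pooled list, replicate 1 and replicate 2. The median pooled rank of the subunit genes was 5330, the same as that of all 71 members.

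Among the other initiation factors, eif-6 had the second IDR peak, but its summit lay in a neighbour. eIF6 keeps the large ribosomal subunit from joining the small one too early. The region, on chromosome I at 12967975 to 12968338 with a pooled rank of 133 and a signal of 112, had its summit in a coding exon of pbs-2, which encodes a proteasome subunit, 789 bp upstream of eif-6, with the tubulin gene tba-2 also in reach. Its replicate ranks were 210 and 387. Inside eif-6 itself the best pooled summit, 409 bp downstream of the 5′ end, ranked 13173, and the best of the replicates ranked 27566 and 2823. The high rank of eif-6 thus came from the window upstream of the gene.

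Genes of the eIF2 trimer, which brings the initiator tRNA, had pooled ranks from 968 to 10619. The region of rank 968 near eif-2alpha, whose product is phosphorylated under stress, also lay in a neighbour, a coding exon of the prohibitin gene phb-1, 460 bp upstream. It ranked 959 in replicate 2, while its counterpart in replicate 1 ranked 6578, behind another summit at rank 1305 that lay 1133 bp upstream. The eif-2gamma region had a pooled rank of 1403 and replicate ranks of 2767 and 1224, in a coding exon 866 bp downstream of the 5′ end. For eif-2beta the pooled rank was 10619, with no replicate 1 summit in the window and a best rank of 2340 in replicate 2. No gene of eIF2B, the exchange factor that recharges eIF2, reached the top 1000 in any list. Of all genes 10.2% did so in at least 1 list, so for so few genes this is near the background. Its beta, epsilon, delta and alpha subunit genes had pooled ranks of 4100, 4989, 14858 and 22673, and eif-2Bgamma was the only 1 of the 71 members with no summit in any of the 3 lists.

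Several initiation factor genes were high in 1 replicate only. The eif-2A region, with a pooled rank of 3618, ranked 400 in replicate 1 (945 bp downstream), and the replicate 2 summit nearest to it ranked 15940. For eif-2D, a factor of non-canonical initiation and recycling, the reverse held, with rank 962 in replicate 2, 25488 for the matching summit of replicate 1 and 2164 in the pooled list. The gene eif-4A3, which encodes the helicase of the exon junction complex, had pooled rank 1294, with 5631 in replicate 1 and 1317 in replicate 2. The start codon factor genes eif-1.A and eif-1 had pooled ranks of 3962 and 7616.

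No gene of the cap-binding family reached the top 1000 in any list, while 10.2% of all genes did so in at least 1. With 6 genes, 0 is near that background. The ife genes encode the eIF4E proteins that recognise the mRNA cap, and ifg-1 encodes the eIF4G scaffold that joins them to the ribosome. The highest was ife-2, at 1633 in the pooled list, with rank 1600 in replicate 1 and 9054 in replicate 2 and its summit in an intron 129 bp downstream of the 5′ end. ifg-1 followed at 2500, with its best summit 936 bp upstream, in an intron of M110.3, and then ife-4, ife-1, ife-5 and ife-3 at pooled ranks of 2784, 4764, 4924 and 8538. In replicate 1, 5 of the 6 were within the top 5000, against 21.8% of all genes. In replicate 2 this was so of 1, ifg-1, at 4124, against 21.0% of all genes.

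The eIF5A genes differed from each other. eIF5A carries the modified residue hypusine and helps ribosomes through stretches that are slow to translate. The region in iff-2 (WBGene00002065, chromosome II, 8560869 to 8561232) ranked 194 in the pooled list, just outside the IDR peaks, with a signal of 107. Its summit lay 316 bp downstream of the 5′ end, in the intron before the first coding exon. Replicate 1 had it at rank 245 (signal 55.1, 319 bp downstream), while the nearest replicate 2 summit, 383 bp downstream, ranked 2256 (signal 44.3) and was not the best of that window, which ranked 1325. With 27.4% G and C within 100 bp, it had the lowest GC content of the 11 genes' best summits. For iff-1 no summit stood in the window in the pooled list or in replicate 1, and the best in replicate 2 ranked 8329.

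Of the 6 elongation factor genes, eef-2 and eef-1G were the high ones, and both were stronger in replicate 2. eef-2 encodes the translocase that moves the ribosome by 1 codon. Its pooled rank was 411 (chromosome I, 9164448 to 9164811), with the summit in a coding exon 1099 bp downstream of the 5′ end, and the replicate ranks were 2787 (signal 39.7) and 177 (signal 62). The gene for the gamma subunit of the eEF1 exchange complex, eef-1G, had pooled rank 591, in the coding sequence given above. The replicate ranks were 1624 (signal 43.2, 583 bp downstream) and 285 (signal 58.5, 692 bp downstream). The replicate 2 summit was also coding, but lay just outside the printed window. The genes for eEF1A, which delivers aminoacyl-tRNA to the ribosome and is among the most abundant proteins of a cell, were not among the strong ones. eef-1A.1 ranked 5638 and eef-1A.2 ranked 6669 in the pooled list, and the best replicate ranks were 1901 in replicate 1 for the first and 1211 in replicate 2 for the second. These paralogs are near-identical in sequence, so reads could be shared or dropped between them depending on an alignment setting that is not given in the sources used here. eef-1B.1 and eef-1B.2 had pooled ranks of 6006 and 18054.

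**Figure D2:**
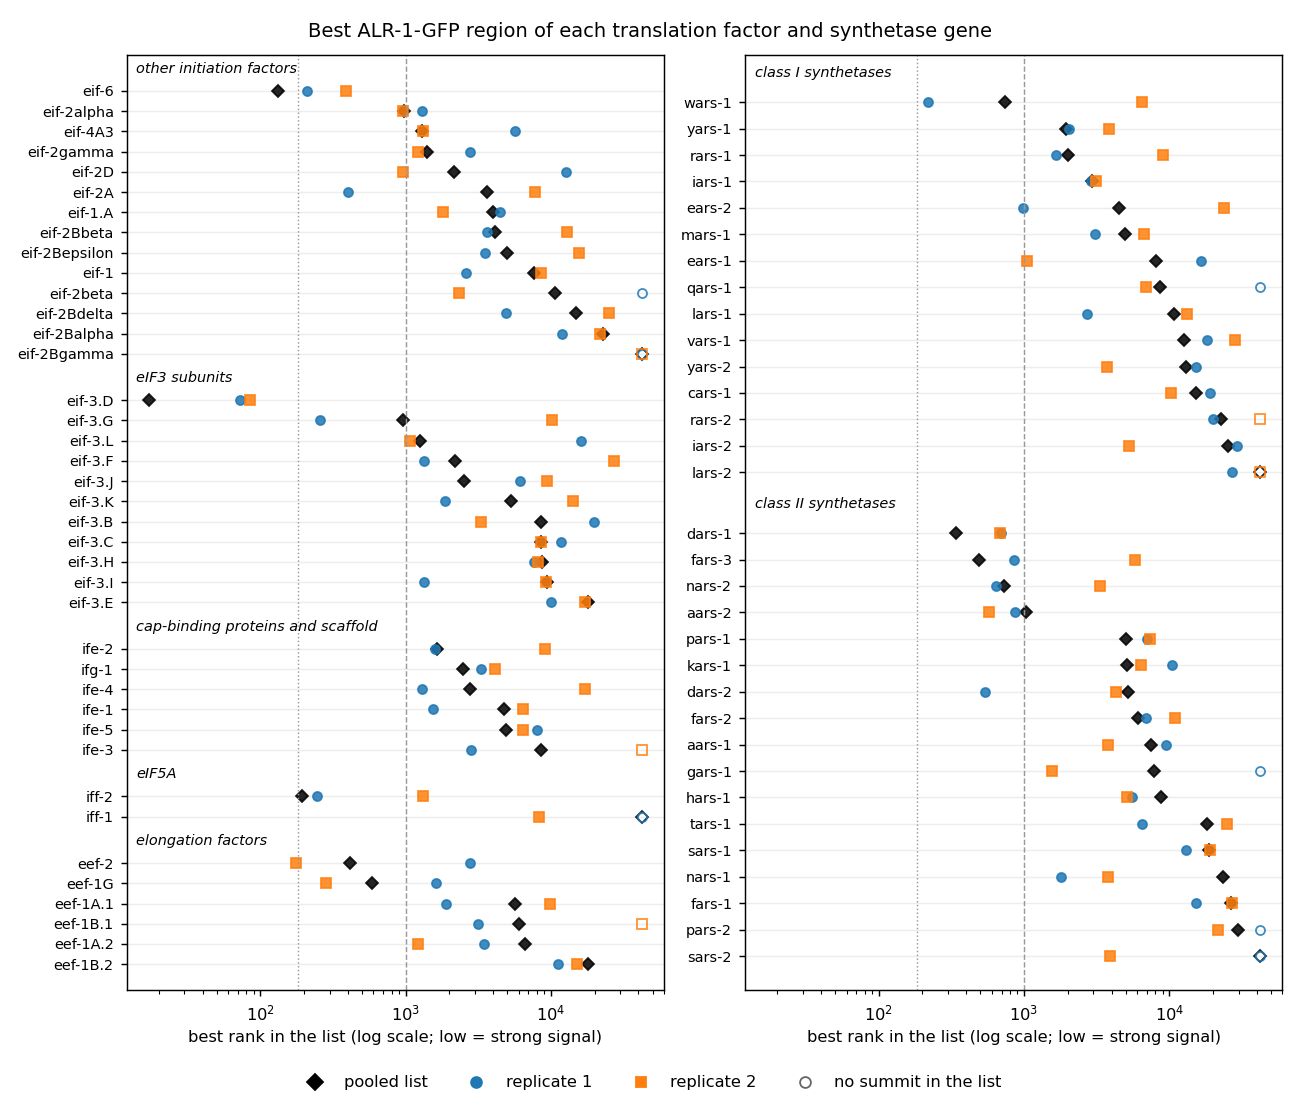
Best rank of each of the 71 members (x axis, log scale, strong to the left) in the pooled list (black), replicate 1 (blue) and replicate 2 (orange), grouped by role, with open symbols at the right edge for genes with no summit in a list. The dotted line marks the number of IDR peaks and the dashed line rank 1000, and only eif-3.D has both replicate ranks left of the dotted line.

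Synthetases are of 2 structural classes that differ in the fold of the catalytic domain. Of 17 class II genes, 3 were within the pooled top 1000 (17.6%, against 5.65% of all genes). There were 5 in replicate 1 (29.4%, against 5.62%) and 2 in replicate 2 (11.8%, against 5.54%). Of 15 class I genes it was 1, 2 and 0, and the pooled share of 6.67% is near the 5.65% of all genes. These counts are too small to set the classes apart. The highest was dars-1 (WBGene00001094, chromosome III, 9489176 to 9491215, minus strand), which encodes an aspartyl-tRNA synthetase. Its pooled region ranked 342 with a signal of 100, and the replicate ranks were close, at 695 (signal 48.2) and 688 (signal 52.2), with summits 531 bp and 506 bp downstream of the 5′ end. The gene ctr-9 was also in reach of that region. The phenylalanyl-tRNA synthetase gene fars-3 had pooled rank 492, 847 in replicate 1 and 5827 in replicate 2. The asparaginyl gene nars-2 had pooled rank 725, 639 in replicate 1 and 3326 in replicate 2. Its span of 12395 bp is the longest of the members, and it held 7 pooled summits, the best 11948 bp downstream of the 5′ end in a coding exon.

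The tryptophanyl gene wars-1 was the highest of class I, at pooled rank 741, with 217 in replicate 1 (signal 56) and 6478 in replicate 2 (signal 36.5), in a coding exon 2920 bp downstream of the 5′ end. For the alanyl gene aars-2 the pooled rank was 1032. Both replicates placed it in the top 1000, at 860 and 576, but with different summits, 1306 bp upstream between genes in replicate 1 and 1170 bp downstream in a coding exon in replicate 2. The aspartyl gene dars-2 ranked 537 and the glutamyl gene ears-2 ranked 990 in replicate 1, beside 4292 and 23740 in replicate 2 and 5179 and 4488 in the pooled list. These too were different summits, for dars-2 1348 bp downstream in replicate 1 and 2765 bp downstream in replicate 2. For ears-2 they lay 298 bp and 705 bp upstream, and the pooled summit was in a coding exon of uncp-18. The other 25 synthetase genes had no rank within 1000 in any list, and 2 of them, lars-2 and sars-2, had no pooled summit. Over all 32 synthetase genes the median pooled rank was 7943.5, beside 4100 for the 33 initiation factor genes and 16798 for all protein-coding genes. In replicate 1 the medians were 6977 for synthetases and 3502 for initiation factors. The order was reversed in replicate 2, at 6418 for synthetases and 8329 for initiation factors.

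**Figure D3:**
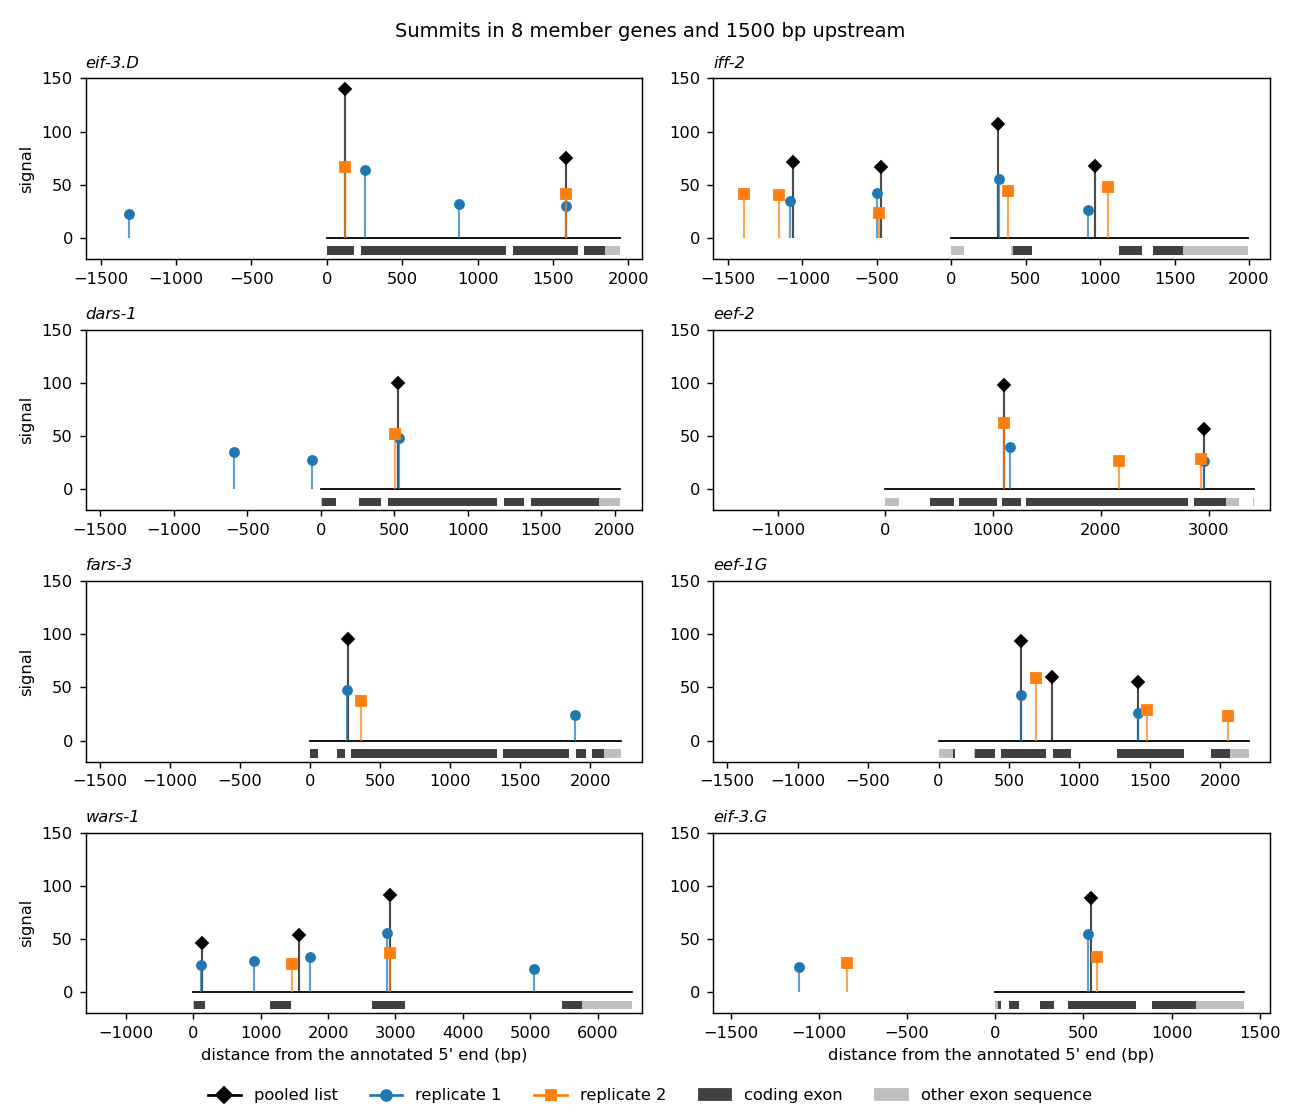
Summits (stems) of the pooled list (black), replicate 1 (blue) and replicate 2 (orange) in 8 member genes and 1500 bp upstream, by distance from the annotated 5′ end (x axis, bp) and signal in their own list (y axis; heights are not comparable between colours). Bars under the line mark coding (dark) and other (light) exon sequence; in dars-1 the tallest stems of the 3 lists stand at 528, 531 and 506 bp, and in iff-2 the tallest black stem stands over an intron.

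The replicates placed few members at the top together. Within the top 1000 there were 4 members in both, eif-3.D, eif-6, dars-1 and aars-2 (5.63%, against 1.74% of all genes). A further 8 were there in replicate 1 alone and 4 in replicate 2 alone. Every member within the pooled top 1000 was among these. Thus 16 members reached the top 1000 of at least 1 of the 3 lists (22.5%, against 10.2% of all genes). In aars-2 these were summits at different places, as given above. Over the 60 members with a summit in both replicates, Spearman's rho of the best ranks was 0.212, and over 11207 such protein-coding genes it was 0.354. These are correlations across genes, some of which share a region, and the members share the same 2 libraries. The larger of the replicate ranks was a median of 3.43 times the smaller for members and 2.25 times for all genes. In 23 of the 60 members the ranks were within a factor of 2, against 4999 of 11207 genes (38.3% and 44.6%). They were apart by a factor of 10 or more in 10 members, against 1134 genes (16.7% and 10.1%). Ranks end at the length of the list, so genes near the top have more room for a large ratio than genes far down. Members had better median best ranks than all genes in each replicate. These ratios therefore cannot tell whether members were less reproducible than other genes. Of the 67 best pooled summits, 46 had a summit of both replicates within 200 bp (68.7%, against 55.8% of 11450 distinct best summits over all genes), 14 of replicate 1 only, 6 of replicate 2 only and 1 of neither.

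**Figure D4:**
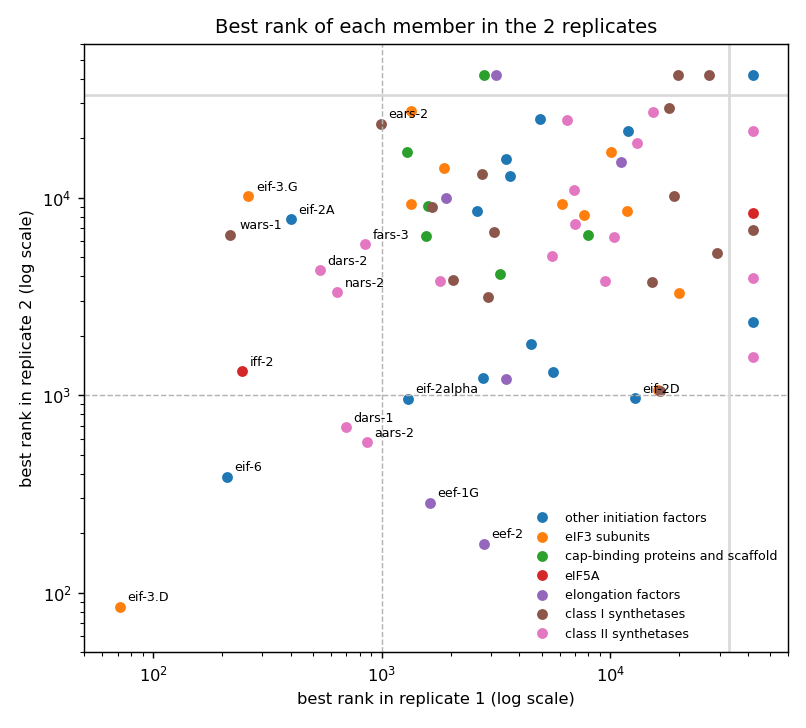
Best rank of each member in replicate 1 (x axis) and replicate 2 (y axis), both on log scales, coloured by role, with genes that lack a summit in a list beyond the grey lines. Dashed lines mark rank 1000; 4 genes lie in the lower left corner and 12 more are within 1000 in 1 replicate.

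Best summits of members lay in coding exons more often than those of all genes, in each list. The coding share of the windows was not compared, so a preference for coding sequence cannot be read from this. With both replicates pooled, the class was coding exon for 38 of 67 (56.7%), against 36.3% of 11450 for all genes and 28.6% of all 30000 regions. The values for members and for all genes were 57.8% and 37.9% in replicate 1, and 60.6% and 34.4% in replicate 2. Promoter sequence, taken as 500 bp before to 100 bp after the 5′ end of a protein-coding gene, held 10.4% of members' best pooled summits, against 16.7% for all genes. Introns held 20.9%, against 29.5%, and intergenic sequence 4.48%, against 10.8%. Counting any annotated coding base regardless of class, 9 of the 11 summits within the top 1000 were coding, the exceptions being those of iff-2 and fars-3, against 55.5% of 824 such summits over all genes.

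**Figure D5:**
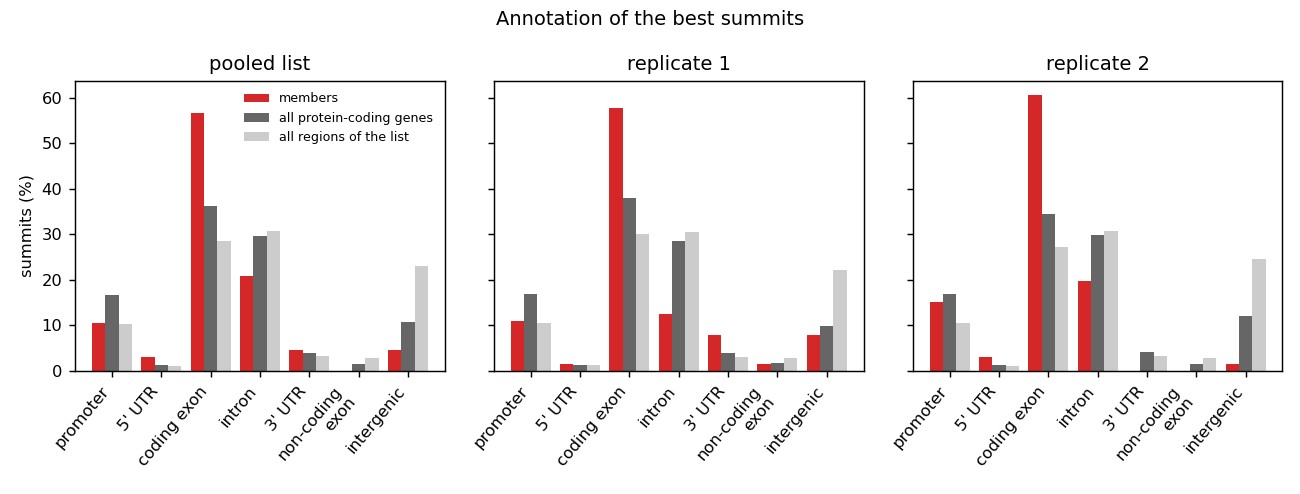
Percent of best summits in each annotation class (y axis) for members (red), all protein-coding genes (dark grey) and every region of the list (light grey), in the 3 lists. The coding exon bars of members stand at 56.7%, 57.8% and 60.6%, above the other bars of that class.

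The best pooled summit was inside the member itself for 50 of 67 (74.6%, against 61.4% of 13741 genes), at a median of 36.7% of the span from the 5′ end, against 47% for all genes. Of the other 17, 11 lay inside another protein-coding gene. For 38 of the 67 the summit was also in reach of another protein-coding gene, so those regions cannot be assigned to the member alone.

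GC content moved with the ranks. Within 100 bp of the summit it was 40.7% ± 7.71 for members' best pooled summits (SD, n = 67) and 36.5% ± 7.61 for those of all genes (SD, n = 11450). Among summits within the top 1000 it was 44.5% ± 7.96 for members (SD, n = 11) and 40.2% ± 8.11 for all genes (SD, n = 824), and it was 35.7% ± 7.73 over all 30000 regions. The part of GC content and of coding sequence in the members' ranks was not tested. TAATTA, searched as these letters, which read the same on both strands, was in 4 of 67 members' windows of 201 bp (5.97%, against 9.98% for all genes' best summits and 10.4% of all regions). The 4 belong to eif-2gamma, rars-1, eif-1 and eif-2Balpha. The replicate lists gave 6.25% and 6.06% for members, beside 9.53% and 9.89% for all genes. TAAT on either strand was in 46 of the 67 windows (68.7%, against 85% for all genes' best summits).

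Strong regions near members were spread over 4 chromosomes. Of the 11 members within the pooled top 1000, chromosomes I, II and III held 3 each, of 21, 17 and 12 members, and V held 2 of 8. None was among the 10 members on IV or the 3 on X. Over all genes the share within the top 1000 was highest on III and I, at 9.92% and 9.28%, and it was 4.03% on II, 6.95% on IV, 3.16% on V and 2.75% on X.

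Genes that act beside these factors were near strong regions in the pooled list and in replicate 2. In replicate 1 their share was close to that of all genes within the top 1000, but not within the top 5000. A list of 25 genes for termination, recycling, mitochondrial elongation and the control of translation, drawn up by symbol with earlier results of these data known, had 24 in the annotation. Of these, 7 were within the pooled top 1000 (all genes 5.65%), 16 within the top 5000 (all genes 21.3%), and 5 had an IDR peak (all genes 1.25%). Those 5 were larp-1, an RNA-binding regulator of mRNAs for the translation machinery (pooled rank 36, with 61 in replicate 1 and 426 in replicate 2), the ribosome recycling gene abce-1 (121, with 1016 and 131), the stress-responsive transcription factor gene atf-4 (138, with 4144 and 38), inf-1, the eIF4A helicase that unwinds mRNA for the ribosome (152, with 2707 and 70), and ncl-1, a repressor of nucleolar size (167, with 428 and 222). The summits of larp-1, abce-1, atf-4 and inf-1 lay in coding exons of those genes, and that of ncl-1 in its intron. The other 2 within the top 1000 were tufm-1, for a mitochondrial elongation factor, at 755 and abcf-2 at 906. The list of replicate 1 had 2 of the 24 within its top 1000 (8.33%, against 5.62% of all genes), and that of replicate 2 had 7 (29.2%, against 5.54%). Within the top 5000 there were 14 of the 24 in replicate 1 (all genes 21.8%) and 15 in replicate 2 (all genes 21.0%). Chromosome III, where 9.92% of all genes were within the pooled top 1000, holds 11 of the 24 and 6 of the 7. The release factor genes erfa-3 and erfa-1 had pooled ranks of 3780 and 16898, and efk-1, the kinase that inhibits eEF2, had 26194. The median pooled rank of the 24 was 3727 (all genes 16798). Their median was 4157.5 in replicate 1 (all genes 16432) and 3681 in replicate 2 (all genes 16932).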

How the data were processed

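The members and lists were chosen with earlier results of these data known. The deposited descriptions say that each list was built from alignments and a control file, the IDR peaks from the 3 longer lists, all on ce11, and the signal value in column 7 is the one set by the authors' peak caller. No aligner, caller or IDR threshold is given in the sources used here. Control data were not analysed here. The files hold no counts, so depth per sample is unknown.

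Regions were sorted by signal within each list. All ended within WBcel235 chromosomes, the same assembly as ce11. Genes came from Ensembl release 115. A summit was assigned to every gene whose span plus 1500 bp upstream contained it. Where annotation classes overlapped, promoters came first, then untranslated regions, coding exons, other exons and introns. Named genes are members with an IDR peak or a rank within 1000 in any list, the best of each role, and those without a summit in any list. Other members appear where a whole complex, family or range is given, or were singled out after their values were seen. No test was run, since there is 1 group of 2 replicates. Alternatives changed the window, rank limit, list and matching distance, and strata of gene length were added after seeing the data. The assignment of summits was tested on simulated data. Python 3.11.15, numpy 2.4.6, pandas 2.3.3, scipy 1.17.1 and matplotlib 3.10.9 were used.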

Additional observations from a re-analysis of the deposited data

How the results depend on the processing

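The 11 members within the pooled top 1000 became 5 in the fixed window of 1500 bp before to 500 bp after the 5′ end, against 3.08% of all genes there. They became 6 at a rank limit of 500 (all genes 3.13%), 17 at 2000 (10.1%) and 32 at 5000 (21.3%). In the gene alone the count was 9 (all genes 3.72%), and with 500 bp upstream it was 10 (4.13%). The list of replicate 1 alone gave 12 (all genes 5.62%), and that of replicate 2 alone gave 8 (5.54%). The share of members stayed above that of all genes under each. The 2 members with an IDR peak (all genes 1.25%) became 1 in the gene alone (0.751%), which leaves out eif-6. Among equally many top regions there was 1 in replicate 1 (all genes 1.18%) and 2 in replicate 2 (1.12%). The median best rank of 5330 became 18716 in that fixed window for members, against 30001 (no summit) for all genes, and 3625 to 6856 with a single replicate. Summits per kilobase numbered 0.476 in the gene alone, against 0.45 with the upstream part. Best summits matched in both replicates numbered 37 within 100 bp and 51 within 500 bp, against 46 within 200 bp. With 2 replicates and no reads, the spread of a signal value cannot be estimated.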
